A study of Mus musculus with 9 samples.

Results

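The genes described here encode the proteins of the cytoplasmic ribosome, the particle that translates mRNA in the cytosol. They were found by gene symbol, as the *Rpl* and *Rps* genes with a number and their *a*, *l*, *x*, *al*, *l1* or *a1* forms, together with *Rpsa*, *Rplp0*, *Rplp1* and *Rplp2*, and symbols that end in -ps (pseudogenes) were left out. This gave 88 of the 55335 entries listed for each library. By GENCODE, 84 are protein-coding genes and 4 are processed pseudogenes despite their symbols, namely *Rps4l*, *Rps12l1*, *Rpl6l* and *Rpl32l*. Mouse zygotes from in vitro fertilization of ICR oocytes with ICR sperm were injected with siRNA and cultured to the 8-cell stage. In control the siRNA was nontargeting, in MFN1-KD it targeted *Mfn1*, which encodes a mitochondrial fusion GTPase, and in H3.3-KD a mixture targeted *H3f3a* and *H3f3b*, both of which encode histone H3.3. Each group had 3 Smart-Seq2 libraries (oligo-dT priming from the poly(A) tail, then PCR), made from pooled embryos whose number per group is 5 to 10 in the labels and 10 in the methods. The age of the females behind these libraries was not stated, and nothing says whether the 3 libraries of a group came from separate injections, so p-values here measure the spread between these libraries.

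A cytoplasmic ribosome has a small subunit, which reads the mRNA, and a large subunit, which forms the peptide bond, and each is built from rRNA and a single copy of most ribosomal proteins. Because the proteins are needed in equal numbers, their genes are among the most highly and evenly expressed in growing cells, and many of their mRNAs begin with a C followed by a run of pyrimidines, the 5′ terminal oligopyrimidine (TOP) tract through which mTORC1 controls their translation. The egg stores ribosomes, and the embryo renews them from its own genome during cleavage. The study had found ribosomal proteins among the partners of MFN1 in oocytes. By staining, it reported less RPL3 and RPL7 protein in oocytes after MFN1 depletion, and less RPL7 in MFN1-depleted embryos of the stage sequenced here. From its RNA data it listed the ribosome and cytoplasmic translation among the terms for genes lower in H3.3-KD. For genes lower in MFN1-KD its terms included mitochondrial translation and translation. The mRNAs of this family are therefore a natural question for these libraries, which measure mRNA and not protein.

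The values are FPKM (a level corrected for library size and gene length) with no read counts beside them, which leaves sequencing depth unknown. Tests used limma on log2(FPKM + 1) of the 13011 genes whose mean over the libraries was 1 FPKM or more, and fold changes below are on that scale. All 88 members passed this filter, but *Rps12l1* did so through a single library, listed at 12.98 FPKM in MFN1-KD replicate 2 and at 0 in the other libraries. *Mfn1* stood at 51.57, 22.55 and 23.77 FPKM in control and at 9.54, 4.4 and 1.15 in MFN1-KD, where it fell (log2 fold change -2.66, adjusted p = 0.0431). *H3f3a* and *H3f3b* fell from 1932 ± 293 and 2988 ± 154 FPKM in control (SD, n = 3) to 149 ± 28.3 and 246 ± 70.3 in H3.3-KD. The entries above 0 numbered 21643 to 22507 in control, 15577 to 20842 in MFN1-KD and 23655 to 24820 after H3.3-KD, and the summed FPKM was 1113563 to 1331977, 1130408 to 1203650 and 933452 to 968604. Of 8 markers of the 8-cell embryo, the summed level was 10772 to 14000 FPKM in control, 16802 to 20446 in MFN1-KD and 6422 to 8272 after H3.3-KD, nearly all of it from *Dppa3*, and others of the list did not follow this order. *Pou5f1* was at 5.1 to 8.9 FPKM in control, 0.3 to 3.68 in MFN1-KD and 63.1 to 392 in H3.3-KD libraries, and *Tfap2c* at 16.5 to 30.9, 35 to 50.9 and 54.3 to 62.7. The 9 markers of cumulus and granulosa cells together were at 0.05 to 3.74 FPKM, near 0 in every library, and the 3 sperm markers at 0 to 2.82. The 6 markers of oocyte-stored mRNA summed to 46.8 to 56.7 FPKM in control, 23.9 to 46.4 in MFN1-KD and 41.0 to 60.8 after H3.3-KD. The part of these differences between groups in the results below was not tested.

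The start sites of some of the members that the comparisons turn on are shown first, because the TOP tract lies there. A RefSeq start (GRCm38.p6) was found for 65 of the 88 members. Each line gives the 10 bases before and the 20 bases from the annotated start, 5′ to 3′, and capitals mark the longest run that opens with C and goes on with C or T, where it has at least 6 letters.
Rpl38 (chr11:114668570-114668599, plus strand): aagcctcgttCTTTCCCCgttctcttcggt
Rpl31 (chr1:39367841-39367870, plus strand): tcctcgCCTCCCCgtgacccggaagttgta
Rpl39 (chrX:37085203-37085232, minus strand): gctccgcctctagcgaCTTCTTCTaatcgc
Rpl5 (chr5:107900518-107900547, plus strand): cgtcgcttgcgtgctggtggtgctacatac
Rpl24 (chr16:55966265-55966294, plus strand): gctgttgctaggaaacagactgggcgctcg
Rps18 (chr17:33955646-33955675, minus strand): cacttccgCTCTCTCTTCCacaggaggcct
Rplp0 (chr5:115559457-115559486, plus strand): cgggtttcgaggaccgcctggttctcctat
Rpl13 (chr8:123102340-123102369, plus strand): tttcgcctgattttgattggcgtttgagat
The first 5 belong to members that fell in H3.3-KD, *Rps18* and *Rplp0* rose there, and *Rpl13* is the member that fell in MFN1-KD. Windows not printed include other members that fell in H3.3-KD under every alternative described below. Of these, *Rpl19*, *Rpl23*, *Rpl36al*, *Rpl41* and *Rps25* have no such run in the window, and *Rps27l* has one.

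Such a run lay somewhere in this window for 34 of the 65 members (52.3%) and for 1799 of 8297 other tested genes (21.7%). A C at the annotated start opened at least 6 pyrimidines in a row in 11 members (16.9%) and in 130 other genes (1.57%). In some of these, such as *Rps18*, the marked run itself opened upstream of the start. Annotated starts can lie some bases from the start used in the embryo, so a window without capitals says only that these letters are not in it. Among the 34 members with the run, 13 were lower and 2 higher in H3.3-KD than in control by the test given below, and among the 31 without it 13 were lower and 3 higher. The members that changed therefore included starts of both kinds, as the printed windows of *Rpl38* and *Rpl5* show side by side.

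Ribosomal protein mRNAs were abundant in every group. The median member stood at 1960 to 2531 FPKM in the control libraries, 1832 to 2136 in MFN1-KD and 1314 to 1746 after H3.3-KD. Between 38 and 46 members were among the 100 highest entries of each library. Together the 88 entries held 16.8, 18.6 and 18.2% of the summed FPKM in control, 19.2, 19.2 and 15.8% in MFN1-KD and 18.2, 17.4 and 15.4% in H3.3-KD, so the ranges of the 3 groups overlapped. As group values the share was 17.9% ± 0.933 in control, 18.1% ± 1.94 in MFN1-KD and 17.0% ± 1.48 after H3.3-KD (SD, n = 3). Mitochondrially encoded transcripts, which belong to the same sum, took 12.2 to 14.2% of it in control, 11.7 to 22.2% in MFN1-KD and 4.56 to 6.20% after H3.3-KD. Without them the members' share was 19.6 to 21.2% in control, 20.4 to 23.0% in MFN1-KD and 16.4 to 19.1% after H3.3-KD, and the last range lay below that of control. The summed FPKM of small subunit genes relative to large subunit genes was 0.877 to 0.911 in control, 0.884 to 0.927 in MFN1-KD and 0.840 to 0.893 after H3.3-KD.

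The member with the highest level in control was *Rpl41*, which encodes the smallest ribosomal protein, at 11958, 14569 and 15429 FPKM. The next were *Rps29* at 8763 ± 2118, *Rps27* at 7280 ± 1455, *Rps25* at 6881 ± 1073 and *Rps19* at 6360 ± 701 FPKM (SD, n = 3), which all encode small subunit proteins. Neighbours in this order differed by less than their spread, except that the lowest control library of *Rpl41* was above the highest of *Rps29*. The lowest of the 84 protein-coding members was *Rpl3l*, the striated muscle paralog of *Rpl3*, at 3.54 to 4.71 FPKM. *Rps2* and *Rps18*, which encode proteins of the small subunit body and head, were at 344 ± 8.83 and 574 ± 54.0 FPKM. The pseudogene entries named for *Rps2* held a further 2421 to 3269 FPKM in these libraries, for a sum of 3320 ± 487 (SD, n = 3).

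**Figure D1:**
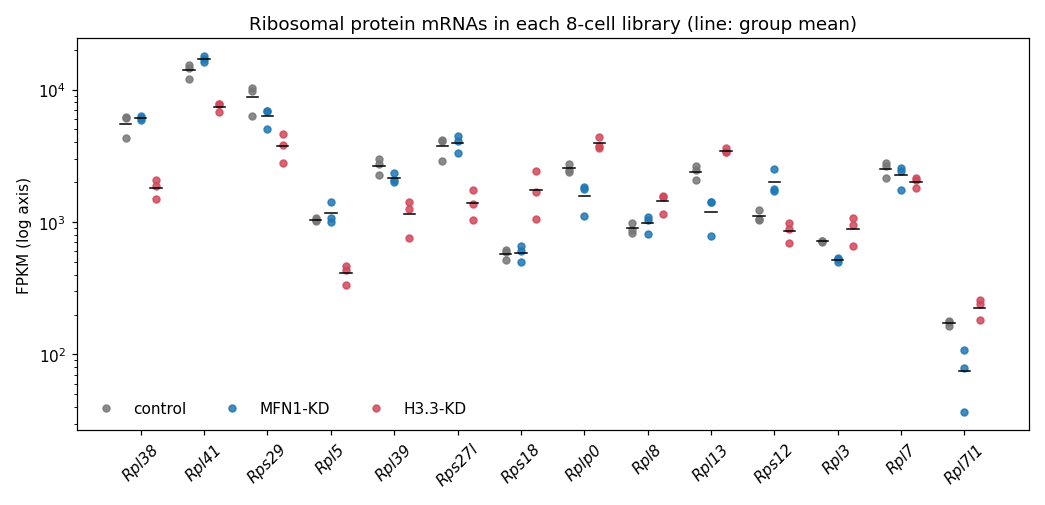
FPKM on a log axis of 14 ribosomal protein genes in each of the 9 libraries, with control in grey, MFN1-KD in blue and H3.3-KD in red, and a black line at each group mean. The H3.3-KD points of *Rpl38*, *Rpl41*, *Rpl5* and *Rps27l* lie below all control points, those of *Rps18* and *Rplp0* lie above them, and the MFN1-KD points of *Rpl13* (780 to 1407 FPKM) lie below both other groups.

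MFN1-KD embryos were first compared with control, to see whether loss of MFN1 changes the mRNAs of the proteins that the study linked to it. A single member, *Rpl13*, was lower at a limma adjusted p under 0.05 (1 of 88, 1.14%, against 2.2% of all genes tested), and 0 were higher (against 1.15% of all genes). At an unadjusted p under 0.05, 17 members were lower (19.3%, against 14% of all genes) and 3 were higher (3.41%, against 9.21%). At the threshold of the study, an unadjusted p under 0.05 and more than 2-fold, 3 were lower (3.41%, against 9.05% of all genes) and 0 higher (against 5.02%). The 3 became 0 when MFN1-KD replicate 3 was left out and 6 when replicate 2 was. The median member changed by -0.15 on the log2 scale, where the median of all genes was -0.08. The 3 libraries of MFN1-KD lay below the 3 of control for 18 members (20.5%, against 16.8% of all genes) and above them for 12 (13.6%, against 11.4%).

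*Rpl13*, which encodes a protein on the surface of the large subunit, stood at 2066, 2645 and 2450 FPKM in control and at 1407, 1406 and 780 in MFN1-KD. The groups did not overlap, and the MFN1-KD mean was 50.2% of control (log2 fold change -1.04, SE 0.23, adjusted p = 0.0444). The call was lost without any one of the control libraries (adjusted p = 0.0728, 0.175 and 0.173 without replicates 1, 2 and 3) or H3.3-KD libraries, which share the spread estimate (0.071, 0.0791 and 0.0548). It was also lost with a replicate block (adjusted p = 0.0548) and after removal of the GC and length trend described below (log2 fold change -0.59, adjusted p = 0.109).

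*Rpl3*, whose protein sits at the peptidyl transferase center and was stained by the study, was listed at 720, 719 and 706 FPKM in control and at 534, 527 and 497 in MFN1-KD. The groups did not overlap, but the change did not pass the test across all genes (log2 fold change -0.46, SE 0.20, adjusted p = 0.192). Summed with its 2 pseudogene entries, as described below, *Rpl3* was at 1136 ± 52.8 FPKM in control and 681 ± 93.3 in MFN1-KD (SD, n = 3). This larger fall did not pass either (limma log2 fold change of the sum -0.745, adjusted p = 0.0733). *Rpl7*, the other gene whose protein was stained, was at 2166, 2641 and 2783 FPKM in control and at 2553, 2446 and 1733 in MFN1-KD. These libraries overlapped (log2 fold change -0.19, SE 0.19, adjusted p = 0.6). The lower RPL3 and RPL7 signals reported by the study were of protein, which these libraries do not measure.

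The other falls with the smallest p in MFN1-KD had adjusted p-values of 0.0622 to 0.152. *Rplp0*, the base of the stalk that recruits elongation factors, was at 1844, 1759 and 1102 FPKM against 2386, 2751 and 2484 in control (log2 fold change -0.73, adjusted p = 0.0794). *Rpl7l1*, a paralog of *Rpl7*, was at 108, 78.7 and 36.6 FPKM against 179, 177 and 162 (log2 fold change -1.33, adjusted p = 0.0622), with no overlap. *Rps4l* had a log2 fold change of -1.47, *Rpl15* of -0.93, *Rpl36* of -0.80, *Rpl18* of -0.78, *Rpl21* of -0.72, *Rps3* of -0.71 and *Rpl34* of -0.58. MFN1-KD replicate 3, which had the fewest entries above 0, was the lowest library for every gene named in this paragraph and for *Rpl13*. Without it *Rpl13* was still past the threshold (adjusted p = 0.0454).

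On the rising side, *Rps12*, which encodes a small subunit head protein, was at 1028, 1230 and 1051 FPKM in control and at 1764, 1712 and 2515 in MFN1-KD. The groups did not overlap, and the change was just short of the threshold (log2 fold change 0.84, SE 0.21, adjusted p = 0.0553). The 9 next were *Rpl35* (0.42), *Rpl28* (0.44), *Rpl37* (0.56), *Rpl12* (0.37), *Rps4x* (0.55), *Rpl41* (0.29), *Rps15* (0.29), *Rpl10a* (0.29) and *Rpl26* (0.49, the log2 fold change in each case), with adjusted p-values of 0.129 to 0.333.

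H3.3-KD embryos were then compared with the same control libraries, to see what depletion of H3.3 does to these genes. More members passed the test as lower than as higher, while among all genes more passed as higher. At an adjusted p under 0.05, 34 of 88 members were lower (38.6%, against 9.12% of all genes tested) and 6 were higher (6.82%, against 21.8%). At the threshold of the study 13 were lower (14.8%, against 9.39%) and 3 higher (3.41%, against 23.9%), which became 28 and 36 lower with median-ratio and upper-quartile scaling and, with the direction turned, 3 lower and 6 higher after rescaling to the same summed FPKM. The median member changed by -0.39 on the log2 scale and the median gene by 0.26, a difference of -0.65. The libraries did not overlap for 42 members that were lower (47.7%, against 18.9% of all genes) and 10 that were higher (11.4%, against 34.5%). FPKM is a level relative to the rest of each library, so a change in total RNA is not seen. In a pool of embryos, a fall in some cells and a fall in all cells cannot be told apart.

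**Figure D2:**
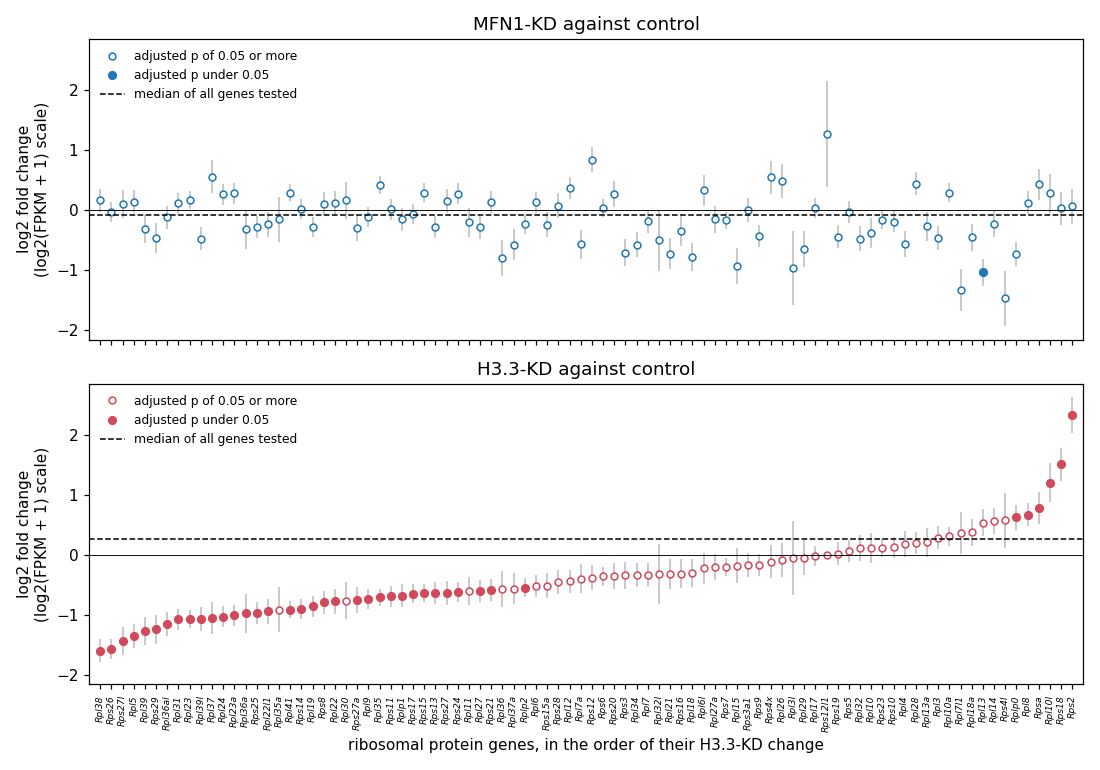
log2 fold change on the log2(FPKM + 1) scale of the 88 members in MFN1-KD (upper panel) and H3.3-KD (lower panel) against control, in the order of their H3.3-KD change, with bars of 1 SE, filled points for an adjusted p under 0.05 and a dashed line at the median of all genes tested. In H3.3-KD 34 filled points lie below 0 and 6 above, and in MFN1-KD the only filled point is *Rpl13*.

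This split depended on how the libraries were scaled. The members lower and higher numbered 48 and 2 after median-ratio scaling, 55 and 2 after upper-quartile scaling, and 16 and 14 when each library was rescaled to the same summed FPKM. The median of all genes was 0.26 with the values as deposited and -0.00, -0.07 and 0.55 under these scalings. The lower members numbered 21 without control replicate 2 and 19 without control replicate 3, and the higher ones 2 or 3 without any single control library, H3.3-KD replicate 1 or H3.3-KD replicate 2. Under all 19 alternatives 13 members remained lower, namely *Rpl5*, *Rpl19*, *Rpl23*, *Rpl24*, *Rpl31*, *Rpl36al*, *Rpl38*, *Rpl39*, *Rpl41*, *Rps14*, *Rps25*, *Rps27l* and *Rps29*, and 1 remained higher, *Rps18*. Relative to the median of all genes the members stayed lower under each of these alternatives.

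*Rpl38*, a protein at the exit of the peptide tunnel that is known for its role in patterning of the mouse axial skeleton, was at 4274, 6054 and 6164 FPKM in control and at 2083, 1876 and 1482 in H3.3-KD. The H3.3-KD libraries were all below the control libraries, with a mean 0.33-fold that of control (log2 fold change -1.59, SE 0.19, adjusted p = 0.000312). In MFN1-KD the gene was at 6045, 6334 and 5839 FPKM, overlapping control (log2 fold change 0.16, adjusted p = 0.652). *Rpl5*, which with *Rpl11* carries 5S rRNA into the ribosome and binds MDM2, was at 1079, 1024 and 1027 FPKM in control and at 469, 435 and 333 in H3.3-KD. It fell to 39.5% of control (log2 fold change -1.35, SE 0.20, adjusted p = 0.000818), whereas *Rpl11* was at 2093 ± 328 FPKM in control and 1418 ± 427 in H3.3-KD (SD, n = 3; log2 fold change -0.60, adjusted p = 0.0823).

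The most abundant member, *Rpl41*, was at 7795, 6713 and 7745 FPKM in H3.3-KD, below its control range given above. It fell to 53.0% of control (log2 fold change -0.91, SE 0.14, adjusted p = 0.00129). *Rps29*, the second in abundance, fell from 6328, 10182 and 9779 to 3803, 4578 and 2772 FPKM (log2 fold change -1.24, adjusted p = 0.004), again without overlap. *Rps19*, a gene known for Diamond-Blackfan anemia, was close to control at 6341, 6277 and 6652 FPKM (log2 fold change 0.02, SE 0.19, adjusted p = 0.954). So highly expressed members of the small subunit head did not move alike.

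By place in the ribosome, the falls were densest among the proteins around the exit of the peptide tunnel, where the nascent chain leaves. There 7 of 9 members fell and 0 rose, beside 9.12% of all genes lower and 21.8% higher. The median log2 fold change of the 9 was -0.85, with a range of -1.59 to -0.02. Those that fell were *Rpl19*, *Rpl22*, *Rpl23a*, *Rpl31*, *Rpl35*, *Rpl38* and *Rpl39*. The call of *Rpl22* was lost in 3 of 19 alternatives, among them control replicates 2 and 3 left out. The calls of *Rpl23a* and *Rpl35* were lost in 1 each. *Rpl39*, a short protein in the tunnel wall, went from 2263, 2721 and 3007 to 1423, 1245 and 755 FPKM (log2 fold change -1.26, adjusted p = 0.00307). *Rpl17* and *Rpl26*, the other two members there, had log2 fold changes of -0.02 and -0.09 and did not pass the test.

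Of the 27 members of the large subunit core and surface, 7 fell and 1 rose (median -0.33), beside the same shares of all genes. *Rpl23* (log2 fold change -1.07, adjusted p = 0.00073), *Rpl24* (-1.03, adjusted p = 0.00165) and *Rpl37* (-1.05, adjusted p = 0.0146) fell, and *Rpl8*, a protein near the peptidyl transferase center, rose from 866, 987 and 826 to 1574, 1556 and 1157 FPKM (log2 fold change 0.67, adjusted p = 0.0236). The call of *Rpl8* was lost in 8 of 19 alternatives, among them each of control replicates 1 and 3 and H3.3-KD replicates 1 and 2 left out and the GC and length trend removed (adjusted p = 0.974), and that of *Rpl37* in 3, among them control replicates 2 and 3 left out. *Rpl13*, the member that was lower in MFN1-KD, stood at 3389, 3623 and 3354 FPKM in H3.3-KD, above all control libraries (log2 fold change 0.54, adjusted p = 0.101). *Rpl3* had a log2 fold change of 0.29 (adjusted p = 0.29). In the central protuberance 1 of 5 fell (*Rpl5*) and 0 rose, and *Rpl7* there had a log2 fold change of -0.33 (adjusted p = 0.215).

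In the stalks, *Rplp1* (log2 fold change -0.68, adjusted p = 0.0187) and *Rplp2* (-0.54, adjusted p = 0.0222), the paired acidic proteins that contact elongation factors, fell, while *Rplp0*, on which they sit, rose. *Rplp0* was at 3773, 3630 and 4374 FPKM in H3.3-KD, above each control library (log2 fold change 0.63, SE 0.21, adjusted p = 0.0423). The falls of *Rplp1* and *Rplp2* did not pass in 5 of 19 alternatives each, among them control replicates 2 and 3 left out. The rise of *Rplp0* did not pass the test without any single control or H3.3-KD library or under median-ratio scaling (log2 fold change 0.27, adjusted p = 0.339).

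In the small subunit, 5 of 14 head members and 8 of 17 body and platform members fell, and 1 and 2 rose. The shares over all genes were 9.12% lower and 21.8% higher. The fall of *Rps26* and the rises of *Rps2* and *Rpsa* did not pass once summed with their pseudogenes, as given below. The calls of *Rps21*, *Rps13*, *Rps27* and *Rps24* as lower were lost in 9, 6, 6 and 5 of 19 alternatives. *Rps18*, a head protein at the contact with the large subunit, was at 514, 589 and 618 FPKM in control and at 2436, 1060 and 1689 in H3.3-KD. It rose 3.01-fold with no overlap (log2 fold change 1.51, SE 0.27, adjusted p = 0.0026), and in MFN1-KD it was at 656, 500 and 607 FPKM, overlapping control. *Rps6*, the substrate of S6 kinase, was at 3986 ± 516 FPKM in control and 3106 ± 274 in H3.3-KD (SD, n = 3; log2 fold change -0.36, adjusted p = 0.111). *Rps14*, *Rps25* and *Rps27a* fell, the last being fused to ubiquitin in its precursor (log2 fold changes -0.90, -0.96 and -0.75), the call of *Rps27a* being lost in 6 of 19 alternatives, among them control replicates 2 and 3 and H3.3-KD replicate 3 left out. Of the ribosomal protein genes that the symbol rule leaves out, *Fau* fell (log2 fold change -0.67, adjusted p = 0.0156), and *Rack1* (-0.51, adjusted p = 0.0907) did not pass the test.

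**Figure D3:**
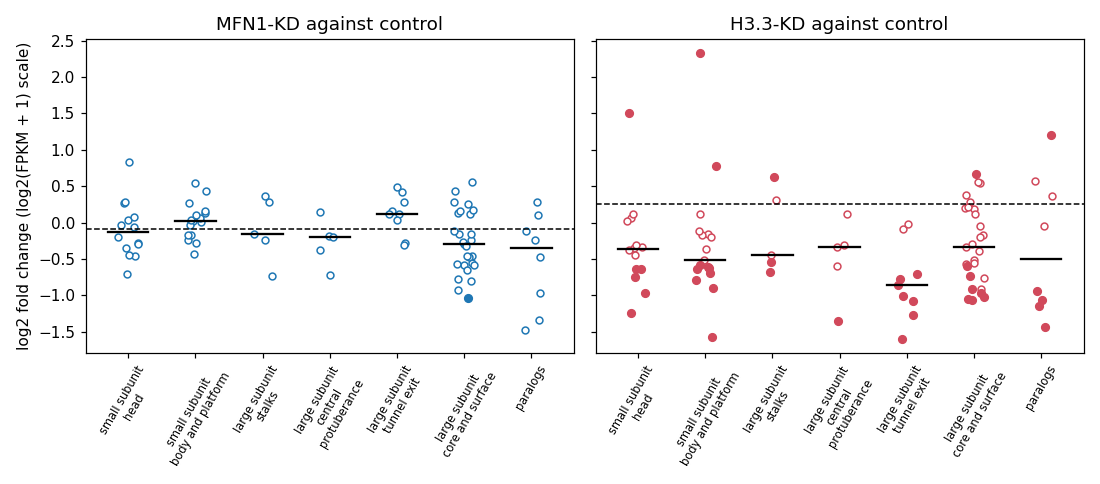
log2 fold change on the log2(FPKM + 1) scale of members by place in the ribosome, against control, in MFN1-KD (left) and H3.3-KD (right), with filled points for an adjusted p under 0.05, a bar at each median and a dashed line at the median of all genes. All 9 members at the tunnel exit lie below 0 in H3.3-KD, and 2 of the 9 do in MFN1-KD.

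Some members share long stretches of sequence with processed pseudogenes, and reads can be listed under either. The files hold 309 -ps entries of ribosomal protein genes, 128 of them with a mean of at least 1 FPKM, and 63 members have at least 1. In some pairs the gene and its pseudogenes had opposite directions between H3.3-KD and control. *Rps26* was at 3699, 4559 and 5015 FPKM in control and at 1433, 1475 and 1542 in H3.3-KD (log2 fold change -1.57, adjusted p = 0.000205), while *Rps26-ps1* went from 92.6, 166 and 283 to 1962, 1989 and 2000 FPKM. *Rps2* was at 337, 342 and 354 FPKM in control and at 2118, 1183 and 2081 in H3.3-KD (log2 fold change 2.33, adjusted p = 0.000432), and its 12 pseudogene entries together went from 2421, 3269 and 3237 to 1477, 3553 and 1052. The H3.3-KD library with the lowest *Rps2*, replicate 2, had the highest value for its pseudogenes. *Rpsa*, which encodes the laminin receptor protein of the small subunit, rose from 461 ± 84.3 to 789 ± 86.3 FPKM (SD, n = 3; log2 fold change 0.78, adjusted p = 0.0425), while its pseudogenes went from 296 ± 67.4 to 40.4 ± 5.90. Its call was lost when any one control or H3.3-KD library was left out (11 of 19 alternatives in all).

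Summing each member with its -ps entries was an alternative chosen after seeing these values. The sum for *Rps2* was 3320 ± 487 FPKM in control and 3821 ± 825 in H3.3-KD (SD, n = 3; log2 fold change 0.19, adjusted p = 0.644), for *Rps26* 4605 ± 761 and 3467 ± 73.5 (-0.40, adjusted p = 0.105), and for *Rpsa* 757 ± 128 and 830 ± 92.1 (0.14, adjusted p = 0.662). For *Rpl10a* the sum rose where the gene alone did not, from 1283 ± 99.0 to 2032 ± 273 FPKM (log2 fold change 0.66, adjusted p = 0.0116), since *Rpl10a-ps1* went from 64.7 to 515 FPKM on average. The calls of *Rpl27* (-0.31, adjusted p = 0.269) and *Rpl36a* (-0.79, adjusted p = 0.0877) were also lost, their pseudogenes going from 266 ± 113 to 507 ± 182 and from 314 ± 69.9 to 395 ± 180 FPKM. The counts over all members were 33 lower and 5 higher. The 33 include *Rpl35a*, which is no evidence here, since 4 of its pseudogene entries hold identical values in every library and the sum adds that value 4 times. Identical entries also occur for *Rps12* (5 and 3 entries) and *Rps19* (2). Summed, *Rpl38* and *Rps18* kept their calls (log2 fold changes of the sums -1.34 and 1.48). Many other pseudogenes of this family have symbols that do not name the parent gene, and they were not added. The changes of *Rps2*, *Rps26*, *Rpsa*, *Rpl27* and *Rpl36a* are therefore uncertain as changes of the gene.

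**Figure D4:**
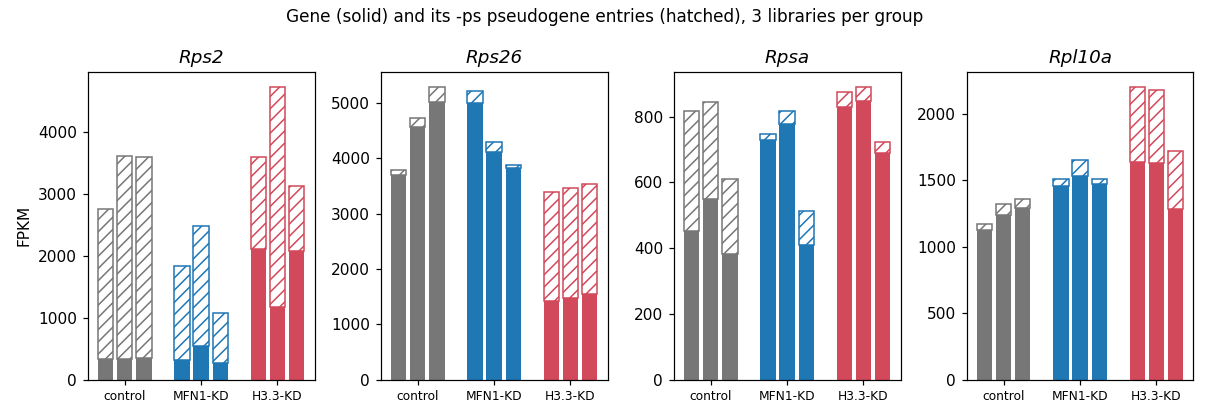
FPKM of 4 genes (solid) and of their -ps pseudogene entries (hatched, stacked on top) in each library, replicates 1 to 3 from left to right in each group. For *Rps26* the H3.3-KD bars are mostly hatched (1962 to 2000 of 3395 to 3542 FPKM), and for *Rps2* the hatched part is most of each control bar (2421 of 2758 FPKM in replicate 1).

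The 2 knockdowns were also compared directly, since both were set against the same control libraries. In H3.3-KD, 34 of 88 members were lower than in MFN1-KD (38.6%, against 11% of all genes tested) and 12 were higher (13.6%, against 27.6%). The median member differed by -0.37 and the median gene by 0.39. After median-ratio scaling the counts were 47 and 6, after upper-quartile scaling 52 and 6, and after rescaling to the same sum 20 and 25, so the more frequent direction turned under the last of these. The members higher numbered 7 without H3.3-KD replicate 1. Under all 19 alternatives 19 members remained lower and 3 higher, the latter being *Rpl13*, *Rpl7l1* and *Rps2*.

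The members with the smallest p were mostly genes already described. *Rpl38* (log2 fold change -1.76, adjusted p = 0.000122), *Rpl23* (-1.24, adjusted p = 0.000227), *Rpl41* (-1.20, adjusted p = 0.000209) and *Rpl35* (-1.13, adjusted p = 0.000329) were lower in H3.3-KD, as was *Rps26* (-1.53), whose call was lost when summed with its pseudogene (-0.36, adjusted p = 0.126). *Rpl37* (-1.60), *Rps27l* (-1.54) and *Rpl5* (-1.49) had larger differences than most of these and passed as lower in each of the 19 alternatives run. *Rps12* was lower too, at 977, 890 and 695 FPKM in H3.3-KD (log2 fold change -1.22, adjusted p = 0.00131). *Rpl13* (1.58, adjusted p = 0.00058), *Rplp0* (1.36, adjusted p = 0.000746), *Rpl7l1* (1.70, adjusted p = 0.00346), *Rps18* (1.48, adjusted p = 0.00205) and *Rps2* (2.27, adjusted p = 0.000315) were higher in H3.3-KD. The sum of *Rps2* and its pseudogenes differed by less (1.15, adjusted p = 0.00968). With the GC and length trend removed *Rps18* (adjusted p = 0.0901) and *Rplp0* (adjusted p = 0.0706) did not pass. *Rpl3* was at 943, 1073 and 661 FPKM in H3.3-KD, above each MFN1-KD library (log2 fold change 0.75, adjusted p = 0.0125), a call lost in 4 of 19 alternatives, among them H3.3-KD replicate 2 left out.

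**Figure D5:**
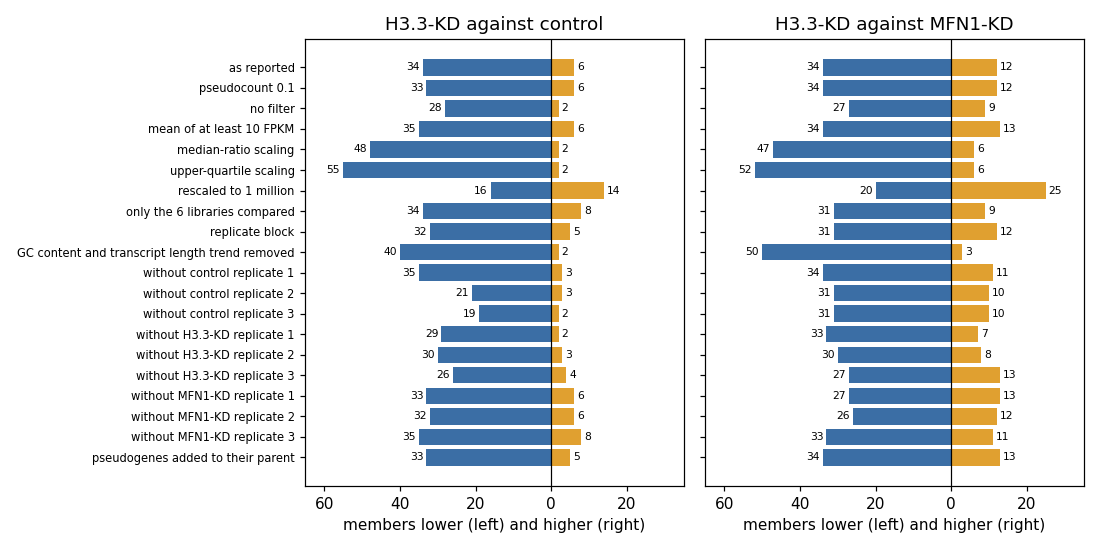
Number of the 88 members lower (blue, to the left) and higher (orange, to the right) at an adjusted p under 0.05 in H3.3-KD against control (left panel) and against MFN1-KD (right panel), as reported and under each alternative way of processing. The bars to the left run from 16 to 55 against control and from 20 to 52 against MFN1-KD.

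The family includes 8 paralogs, copies that can replace or accompany the usual protein, although *Rps4l* among them is a processed pseudogene by GENCODE. *Rps27l* and *Rpl36al* were as abundant as ordinary members. *Rps27l*, a p53 target in many cells, was at 2891, 4183 and 4071 FPKM in control and at 1743, 1367 and 1043 in H3.3-KD, with no overlap (log2 fold change -1.44, SE 0.23, adjusted p = 0.00131). *Rpl36al* (-1.15, adjusted p = 0.00184), *Rpl39l* (-1.06, adjusted p = 0.00286) and *Rpl22l1* (-0.94, adjusted p = 0.0074) also fell in H3.3-KD, and *Rpl10l*, the retrocopy of X-linked *Rpl10* known for its role in male meiosis, rose. *Rpl10l* stood at 70.2, 64.9 and 55.1 FPKM in control and at 186, 132 and 128 in H3.3-KD (log2 fold change 1.20, adjusted p = 0.0179), a call lost in 7 of 19 alternatives (among them leaving out control replicate 2, control replicate 3 or the first H3.3-KD library). It was far below *Rpl10* itself at 3076 ± 292 FPKM in control. *Rpl3l* (-0.05), *Rpl7l1* (0.37) and *Rps4l* (0.58) did not pass the test there, and 0 paralogs passed in MFN1-KD (limma). At an unadjusted p under 0.05 there were 3, all lower there (*Rpl7l1*, *Rps4l* and *Rpl39l*).

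The balance of each paralog with its parent was taken as a log2 ratio in each library and compared by a two-sided exact permutation test, which cannot go below p = 0.10 with 3 libraries against 3. None of the 24 comparisons could therefore pass, and adjusted p-values were 0.3 or more. The *Rps27l* to *Rps27* ratio was -0.97 ± 0.07 in control and -1.78 ± 0.36 in H3.3-KD (SD, n = 3; exact p = 0.1), without overlap. The *Rpl7l1* to *Rpl7* ratio was -3.86 ± 0.25 in control, -5.00 ± 0.50 in MFN1-KD and -3.16 ± 0.15 after H3.3-KD, with no overlap between any pair of groups. The *Rpl10l* to *Rpl10* ratio was -5.58 ± 0.31 in control and -4.50 ± 0.34 in H3.3-KD, also without overlap. The *Rpl39l* to *Rpl39*, *Rpl36al* to *Rpl36a* and *Rpl22l1* to *Rpl22* ratios overlapped between H3.3-KD and control (differences of 0.20, -0.18 and -0.17).

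The members were also set against transcript length and GC content. The transcript taken for each gene need not be its coding mRNA (*Rps15a* was given 5179 bases), so lengths and GC content are approximate. By these lengths the protein-coding members are short, with a median of 1100 bases against 3112 for all protein-coding genes tested. Members that fell in H3.3-KD had a median length of 858 bases, those that rose 1123 and those that did not pass the test 1265. Across the 84 protein-coding members the change in H3.3-KD had a Spearman's rho of 0.31 with length and 0.21 with GC content, where the corresponding values over 12768 genes were 0.18 and 0.34. These are descriptions over genes of the same libraries. After a fitted trend over both properties was taken out of each library, 40 members were lower and 2 higher in H3.3-KD, and the median relative to all genes in MFN1-KD turned from -0.07 to 0.21.

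The genes that make and load these proteins were read from lists by function. Assembly factors more often rose than fell in H3.3-KD, with a split that depended on the scaling. Of 50 small subunit assembly factors 3 fell and 23 rose, and of 57 large subunit assembly factors 6 fell and 23 rose, beside the 9.12% and 21.8% of all genes. Under the 3 other scalings the falls and rises were 0 to 6 and 15 to 34 for the small subunit list and 5 to 11 and 17 to 32 for the large subunit list, and with the GC and length trend removed they were 4 and 9 and 8 and 12. *Rrp7a* went from 13.4 ± 3.78 to 99.2 ± 15.9 FPKM (log2 fold change 2.82, adjusted p = 0.000203) and *Nle1* from 8.05 ± 4.04 to 113 ± 4.75 (3.75, adjusted p = 0.0001), whereas *Pno1* (-0.82) and *Rpf2* (-1.53), the latter an escort of the 5S particle with *Rpl5*, fell. In the list of box H/ACA and nucleolar scaffold proteins 2 of 9 fell (*Nop10*, -1.02) and 5 rose (*Gar1*, 2.40). For RNA polymerase I transcription 5 of 20 fell (*Polr2l*, a subunit shared by the polymerases, -1.64) and 5 rose (*Ubtf*, the upstream binding factor, 2.61).

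Among 15 import factors and chaperones of ribosomal proteins 3 fell (*Btf3*, -0.79) and 6 rose (*Tnpo1*, 2.69). Of 29 tested genes of mTORC1 and TOP mRNA control 4 fell (*Lamtor5*, -2.29) and 5 rose (*Akt1s1*, which encodes the mTORC1 inhibitor PRAS40, from 2.78 ± 0.721 to 98.0 ± 15.2 FPKM, 4.72). Of 22 other genes with TOP mRNAs 5 fell (*Eif3e*, -1.19) and 5 rose (*Eef2*, 2.51). In the last 3 lists and in that of RNA polymerase I the direction with more calls differed between scalings. Of the 128 tested pseudogenes 3 fell and 11 rose, against 16 and 6 after median-ratio scaling. The 78 mitochondrial ribosomal protein genes, whose products form a separate ribosome, had 31 falls and 4 rises, with a median of -0.998 relative to all genes against -0.65 for the cytoplasmic members. The falls and rises were 18 to 43 and 0 to 10 under the other scalings and 45 and 0 with the trend removed. *Mrps18c* fell (-2.54) and *Mrpl9* rose (1.07, the log2 fold change in each case).

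In MFN1-KD, beside 2.2% of all genes lower and 1.15% higher, these lists had 0 to 5 calls in each direction as reported. Small subunit assembly factors had 2 falls (*Imp4*, from 141 ± 14.4 to 33.3 ± 12.9 FPKM, log2 fold change -2.13, adjusted p = 0.0274) and 0 rises (limma; *Utp6* had a log2 fold change of 1.10 and an adjusted p of 0.0713). Large subunit assembly factors had 0 falls (*Nip7*, -1.05, adjusted p = 0.0681) and 3 rises (*Zfp622*, 1.94). RNA polymerase I transcription had 2 falls (*Polr2e*, -1.28), import factors and chaperones 2 falls (*Pdcd2l*, -1.37) and 1 rise (*Ipo7*, 1.10), mTORC1 and TOP mRNA control 4 falls (*Lamtor1*, -2.23), and other TOP mRNAs 1 fall (*Eef1d*, -1.02). In the list of box H/ACA and nucleolar scaffold proteins 1 rose (*Naf1*, 2.28). Mitochondrial ribosomal proteins had 5 falls (*Mrpl10*, -1.89) and 0 rises, with a median of -0.48 relative to all genes, where the cytoplasmic members had -0.07. Under the other scalings and with the trend removed the falls were 0 to 2 for RNA polymerase I, import factors, other TOP mRNAs and pseudogenes, 1 to 3 for small subunit factors, 3 to 4 for mTORC1 and 2 to 6 for mitochondrial ribosomal proteins, and the rises 2 to 3 for large subunit factors and 0 to 1 for import factors and other TOP mRNAs. Of the pseudogenes 1 fell (*Rpsa-ps10*, from 288 ± 67.0 to 43.5 ± 49.8 FPKM, -3.37). *Rpsa* itself went from 461 ± 84.3 to 639 ± 200 FPKM in the same libraries. The sum of *Rpsa* and its pseudogenes was 757 ± 128 FPKM in control and 693 ± 159 in MFN1-KD (limma log2 fold change -0.14, adjusted p = 0.75). The fall of *Rpsa-ps10* is therefore uncertain as a change of the pseudogene.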

How the data were processed

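RNA was measured in 9 libraries of pooled 8-cell embryos, 3 per group, grouped by their labels. Per the labels and methods, the authors made Smart-Seq2 libraries, trimmed reads with cutadapt 1.16 and mapped them to mm10 with STAR. The authors deposited FPKM per gene symbol; the program, annotation and strand setting are not given in the sources used here, so depth is unknown and genes with near-identical copies are uncertain.

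Entries with a mean of at least 1 FPKM (13011 of 55335) were fitted as log2(FPKM + 1) in limma 3.58.1 (R 4.3.3, trend and robust options, all libraries, no covariate), with Benjamini-Hochberg adjustment over all of them. The fit was tested on simulated data. The study used Deseq2 on counts, which were not used here. Positions, transcript lengths and GC content are from GENCODE M21 (GRCm38), for a single transcript per gene, which need not be the coding mRNA. Python 3.11.15 was used for the summaries and figures.

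The members and lists were chosen with earlier results of these data known. The genes named are the 10 falls and 10 rises with the smallest p in each knockdown (5 in the direct comparison), the 5 highest in control, *Rpl3*, *Rpl7* and other members of known function, the paralogs, and the gene with the smallest p in each direction of each list. Alternatives were another pseudocount, other filters and scalings, only the 6 libraries compared, a replicate block, removal of the GC and length trend (splines with 5 degrees of freedom) and each library left out. Adding pseudogenes to their parent was chosen after seeing the data.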

Additional observations from a re-analysis of the deposited data

How the results depend on the processing

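Members lower in MFN1-KD at an adjusted p under 0.05 numbered 1 as reported and 0 with no filter on low values, after rescaling to the same sum, with only the 6 libraries compared, with a replicate block and with the GC and length trend removed, and 3 with a minimum mean of 10 FPKM. Members higher numbered 1 with that minimum, with rescaling to the same sum and with the trend removed, which also gave 2 higher at the threshold of the study and a median relative to all genes of 0.212. In H3.3-KD against control, members higher numbered 2 with no filter, with median-ratio and upper-quartile scaling and with the trend removed, and 14 after rescaling to the same sum. Members lower numbered 55 with upper-quartile scaling and 16 after rescaling to the same sum. At the threshold of the study 28, 36 and 3 were lower with median-ratio scaling, upper-quartile scaling and rescaling to the same sum, the last with 6 higher. In H3.3-KD against MFN1-KD, members higher numbered 6 with median-ratio or upper-quartile scaling, 25 after rescaling to the same sum and 3 with the trend removed, and members lower 52 with upper-quartile scaling and 20 after rescaling to the same sum. Its median relative to all genes was -0.427 with no filter. The cause of these shifts was not tested.

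Leaving out each library in turn gave 0 to 2 members lower in MFN1-KD (0 to 6 at the threshold of the study, 0 without MFN1-KD replicate 3), 19 to 35 lower and 2 to 8 higher in H3.3-KD against control, with 9 to 18 lower at the threshold of the study, and 26 to 34 lower and 7 to 13 higher in H3.3-KD against MFN1-KD. The medians relative to all genes ranged from -0.216 to 0.042, from -0.829 to -0.571 and from -0.825 to -0.67. Libraries with the same replicate number correlated in their deviations by -0.05 to 0.16, and those with different numbers by -0.12 to 0.07. Between H3.3-KD and MFN1-KD the same-number values were 0.05 to 0.14. The numbers were not taken as pairs, but these values do not settle whether libraries were paired. With the replicate block 0 members were lower in MFN1-KD. None of the single-gene results that passed the test turned its direction under the alternatives run. Depth is unknown, so no limit of detection can be given, and pseudogenes with other symbols, the sum each library is scaled to and the small number of libraries limit the counts above.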

Other observations

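The genes around the ribosome were also set H3.3-KD against MFN1-KD, where 11% of all genes tested were lower and 27.6% higher. Large subunit assembly factors had 5 lower and 27 higher of 57, with *Mdn1*, the AAA ATPase that removes assembly factors, at 134 ± 6.68 FPKM in MFN1-KD and 23.6 ± 2.05 after H3.3-KD (SD, n = 3; log2 fold change -2.46, limma adjusted p = 8.72e-05). Small subunit assembly factors had 2 lower and 23 higher of 50. RNA polymerase I transcription had 2 lower and 9 higher of 20, among them *Ubtf* at 16.9 ± 7.66 FPKM in MFN1-KD and 148 ± 18.3 after H3.3-KD. The box H/ACA and nucleolar scaffold list had 1 lower and 5 higher of 9, import factors and chaperones 0 lower (limma; *Naca* had a log2 fold change of -0.54 and an adjusted p of 0.0544) and 6 higher of 15, mTORC1 and TOP mRNA control 3 and 12 of 29, and other TOP mRNAs 5 and 6 of 22. Mitochondrial ribosomal proteins had 16 lower and 15 higher of 78, with *Mrps33* at 445 ± 33.8 FPKM in MFN1-KD and 90.2 ± 21.6 after H3.3-KD (log2 fold change -2.32). Of the ribosomal protein pseudogenes 11 were lower and 18 higher of 128. *Fau* and *Rack1* were lower (log2 fold changes -0.53 and -0.80). These counts depended on the scaling. After median-ratio and upper-quartile scaling mTORC1 and TOP mRNA control had 6 lower and 6 higher and then 8 and 6, other TOP mRNAs 8 and 3 and then 9 and 2, mitochondrial ribosomal proteins 26 and 9 and then 30 and 8, and pseudogenes 19 and 9 and then 22 and 8. After rescaling to the same sum mitochondrial ribosomal proteins had 11 and 22. Assembly factors of both subunits, RNA polymerase I and import factors had more higher than lower under these 3 scalings. With the GC and length trend removed RNA polymerase I had 4 lower and 4 higher, and import factors 2 and 2. Small and large subunit assembly factors then had 2 and 15 and 9 and 15.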
